A study of Mus musculus with 6 samples.

Results

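Growth hormone and STAT5 pathway genes were followed in FXR ChIP-seq of mouse liver. The members are 10 genes, namely Ghr, Jak2, Stat5a, Stat5b, Socs2, Cish, Igf1, Igfals, Igfbp1 and Igfbp2. A peak belonged to a member when the gene name deposited with it was that gene. This gave 65 of the 32535 deposited peaks, with 44 of 20040 in the WT list and 21 of 12495 in the LKO list.

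FXR is the nuclear receptor that senses bile acids, and ChIP-seq counts the DNA fragments that an antibody to it pulls down. All mice were male C57BL/6. Both genotypes carried Bcl6 alleles flanked by loxP sites. Bcl6fl/fl mice without Cre were the control, written WT here. Bcl6LKO mice also carried Alb-cre, a Cre driven by the albumin promoter that deletes Bcl6 in hepatocytes, and they are written LKO. Deletion in other liver cells was not measured here. The age of the mice was not given in the labels. Each genotype had 2 FXR libraries and 1 library of input, the sheared chromatin before the antibody was added. The comparison asks where FXR sits on these genes when hepatocytes lack BCL6.

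Growth hormone binds its receptor GHR on hepatocytes and activates the kinase JAK2, which phosphorylates STAT5A and STAT5B. The STAT5 proteins then move to the nucleus and switch on the genes of circulating IGF1 and its carrier IGFALS, and of SOCS2 and CISH, which damp the same signal. BCL6 is a repressor that recognises nearly the same DNA letters as STAT5 and opposes it in male liver. IGFBP1 and IGFBP2 are binding proteins that liver secretes and that hold IGF1 in blood.

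The FXR libraries held from 2883717 to 22637613 tags. The shallowest was WT replicate 2, and 86.8% of the pooled WT tags came from WT replicate 1. At the members' peaks the estimated median tag number was 10.1 in WT replicate 2 and between 34.9 and 40.8 in each of the other FXR libraries. The hepatic FXR targets Nr0b2 (SHP) and Abcb11 (the bile salt export pump) had 4 peaks in each list, all overlapping. FXR ChIP carries no measure of the Bcl6 deletion, so the genotype rests on the labels. Peaks were called on pooled replicates, so a peak count has no replicate spread, and intervals on shares are 95% Wilson intervals that cover counting error over peaks only. Nothing in the labels says that the 2 libraries of a genotype came from separate mice, so their SD may be technical.

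The sequences under the strongest of these peaks come first, because they show what FXR was found on. They are the 5 genes with the strongest shared peaks, shared meaning overlap of the lists by at least 1 bp, and then the strongest peak found in 1 list only. They are read 5′ to 3′ on the plus strand of GRCm38.p6 (the coordinates of mm10). Capitals mark every exact half-site AGGTCA of nuclear receptors on either strand, every match to TTCNNNGAA, the palindrome of STAT proteins whose outer letters also belong to the BCL6 motif, and every match to IR1. IR1 is the inverted repeat AGGTCANTGACCT that FXR binds with its partner RXR, searched with at most 2 mismatches in 12 scored bases, and an exact match to it would hold 2 half-sites.
Igfbp2, -51.6 kb, chr1:72772749-72772959, intergenic: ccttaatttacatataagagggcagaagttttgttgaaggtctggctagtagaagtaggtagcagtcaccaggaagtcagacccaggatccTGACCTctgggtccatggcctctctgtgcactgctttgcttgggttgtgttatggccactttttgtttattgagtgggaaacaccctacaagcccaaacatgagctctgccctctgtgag
Stat5b, -6.6 kb, chr11:100829033-100829243, intron 1: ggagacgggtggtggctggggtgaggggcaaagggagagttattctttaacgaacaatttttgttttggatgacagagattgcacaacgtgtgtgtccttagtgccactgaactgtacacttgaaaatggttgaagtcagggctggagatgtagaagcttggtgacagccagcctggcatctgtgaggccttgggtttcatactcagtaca
Cish, 11.9 kb, chr9:107308482-107308692, intergenic: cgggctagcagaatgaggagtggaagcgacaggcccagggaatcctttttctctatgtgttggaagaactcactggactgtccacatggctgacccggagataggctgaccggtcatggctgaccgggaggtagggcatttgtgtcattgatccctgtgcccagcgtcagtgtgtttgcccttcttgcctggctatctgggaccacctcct
Igfbp1, promoter, chr11:7197665-7197786, the part of the peak before exon 1: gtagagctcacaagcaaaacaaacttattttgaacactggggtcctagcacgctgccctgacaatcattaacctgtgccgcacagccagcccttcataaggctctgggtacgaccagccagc
Igf1, 41.1 kb, chr10:87902067-87902277, intron 2: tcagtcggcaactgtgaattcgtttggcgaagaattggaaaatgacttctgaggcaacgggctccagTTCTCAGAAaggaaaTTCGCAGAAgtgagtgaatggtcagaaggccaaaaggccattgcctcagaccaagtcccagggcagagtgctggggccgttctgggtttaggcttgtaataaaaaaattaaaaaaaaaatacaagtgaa
Igf1, 12.6 kb, chr10:87873562-87873772, intron 2, WT list only: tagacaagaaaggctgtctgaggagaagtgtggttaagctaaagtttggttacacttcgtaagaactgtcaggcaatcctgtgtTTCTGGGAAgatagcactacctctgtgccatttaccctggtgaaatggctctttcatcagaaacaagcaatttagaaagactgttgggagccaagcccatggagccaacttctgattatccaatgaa

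Of these runs, that of Igfbp2 held 1 half-site, TGACCT on the printed strand, 11 bases from the peak's centre. Neither the Stat5b, the Cish nor the Igfbp1 run held any of the 3 motifs. The shared Igf1 peak held 2 STAT-type palindromes, TTCTCAGAA at chr10:87902134-87902142 and TTCGCAGAA at chr10:87902149-87902157. The WT-only Igf1 peak held 1, TTCTGGGAA, 17 bases from its centre. A match is a description of letters and not a shown binding site.

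FXR peaks lay on 8 of the 10 genes in WT and on 7 in LKO, and the 7 were among the 8. Over all genes with a WT peak, 69.2% also had an LKO peak. Ghr and Igf1 each had 10 WT peaks, Stat5b 7, Cish 6, Stat5a 4, Igfbp2 4, Igfbp1 2 and Igfals 1, while Jak2 and Socs2 had none in either list. Among 9025 genes with a WT peak the median was 1 peak, and 121 genes (1.34%) had at least 10. In the LKO list Cish had 6, Igfbp2 4, Stat5b 3, Igf1 3, Ghr 2, Igfbp1 2, Igfals 1 and Stat5a none.

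**Figure D1:**
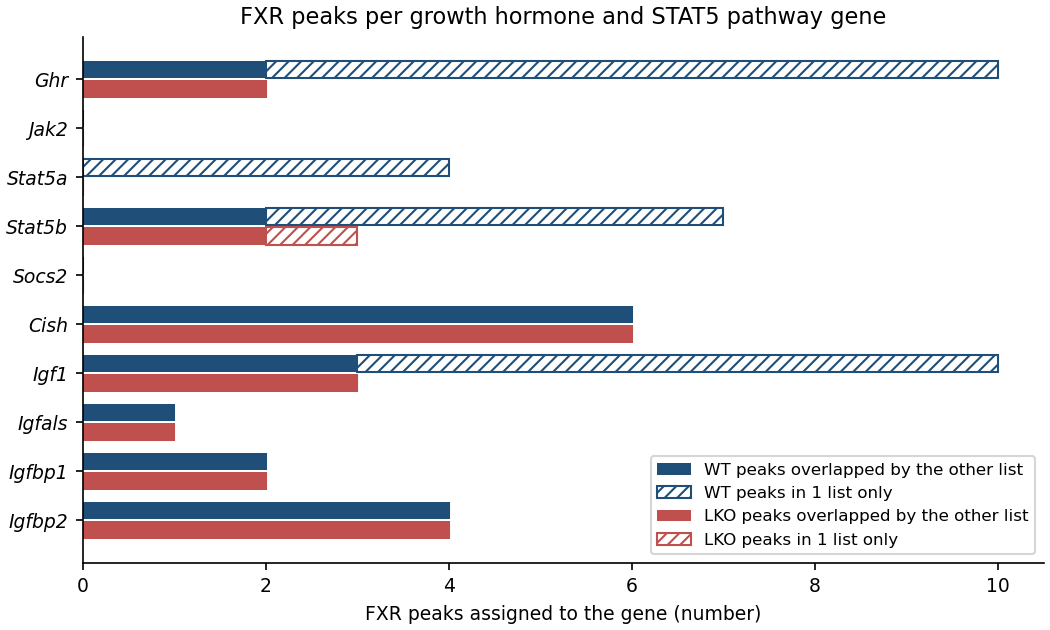
Number of FXR peaks assigned to each gene (x axis) in WT (upper bar, blue) and LKO (lower bar, red). Filled bars are peaks that overlap a peak of the other list by at least 1 bp and hatched bars are peaks in 1 list only. The WT-only peaks sit on Ghr (8), Igf1 (7), Stat5b (5) and Stat5a (4), and Cish, Igfals, Igfbp1 and Igfbp2 have none.

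The overlap differed from gene to gene, and the genes are grouped here by that overlap, as a description. By the deposited gene name, Cish, Igfals, Igfbp1 and Igfbp2 had 13 peaks in each list in all, and each overlapped a peak of the other list. Within 20 kb of each of these genes the WT list also held unshared peaks assigned to neighbouring genes. Counted by gene span and 20 kb on each side, Cish had 8 WT and 7 LKO peaks and Igfals 3 and 2. Igfbp1 had 3 and 2 and Igfbp2 6 and 4. Ghr, Stat5a, Stat5b and Igf1 had 31 WT peaks, of which 7 overlapped an LKO peak (2 on Ghr, 2 on Stat5b and 3 on Igf1), and 8 LKO peaks. Together, 20 of 44 WT peaks overlapped an LKO peak (45.5%, interval 31.7 to 59.9%), against 49.5% of all WT peaks. Of the LKO peaks, 20 of 21 overlapped a WT peak (95.2%, 77.3 to 99.2%), against 79.4% of all LKO peaks. The share of the WT peaks was therefore near the background of its list, and these genes as a set did not stand out by it.

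The WT-only peaks were mostly weak ones. Strength is the mean of the 2 log2 ChIP values of a peak, and its percentile ranks it among all peaks of its list. The 20 shared WT peaks had a median percentile of 80.75, and the 24 WT-only peaks had one of 27.72. Of the 23 WT peaks at or above the median strength, 18 overlapped an LKO peak (78.3%), against 75.5% of all such WT peaks. Of the 21 below it, 2 did (9.52%, 2.65 to 28.9%), against 23.5%.

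The weak peaks rested on few tags. The WT-only peaks of the members had an estimated median of 32.4 tags in WT replicate 1 and 6.62 in WT replicate 2. Of the 44 WT peaks, 22 had at least 10 estimated tags in both libraries, and 17 of these overlapped an LKO peak (77.3%), against 75.6% of all WT peaks at that depth. Ghr then had 3 WT peaks with 1 shared, Stat5b 3 with 1, Igf1 4 with 3 and Stat5a none, while all 21 LKO peaks met that depth. The FXR libraries held 19022618 and 2883717 tags in WT and 21287263 and 22637613 in LKO, so the shorter LKO list came from the deeper libraries. Whether the WT-only peaks follow genotype or a trait of the libraries, such as depth, cannot be told apart, because peaks were called once per genotype.

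**Figure D2:**
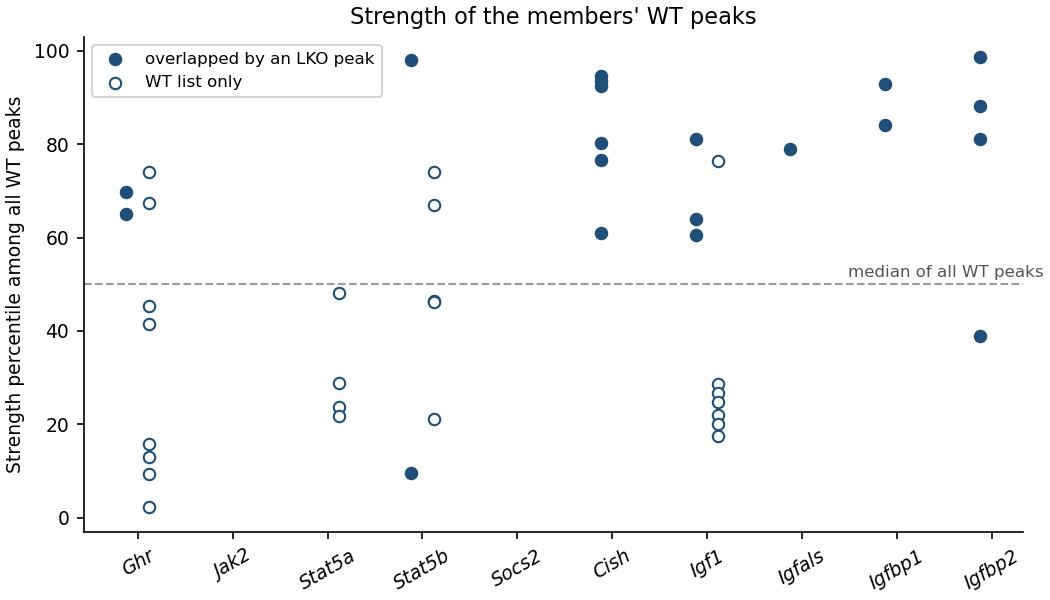
Strength percentile of each WT peak of the 10 genes among all 20040 WT peaks (y axis), by gene (x axis). Filled points overlap an LKO peak and open points are in the WT list only; the dashed line is the median of all WT peaks. Of the 20 shared peaks 18 lie at or above the line, and of the 24 WT-only peaks 5 do.

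The receptor gene Ghr spans 265.6 kb on chromosome 15. Its 10 WT peaks lay in intron 1 or 2 (4 peaks) and between genes upstream (6 peaks), from -155.4 kb to 132.1 kb of an annotated start. None was at the promoter, and the nearest to the start was at -18.6 kb, in the WT list only. Its strongest shared peak was in intron 1 at 92.5 kb, at chr15:3489223-3489433. Levels at shared peaks are given as the log2 value of a library minus the median of that library over the 9918 shared peaks, so that 0 is a typical shared peak. At this one they were 0.01 and -0.23 in the WT libraries and 0.19 and -0.37 in the LKO libraries. The means were -0.11 ± 0.17 and -0.09 ± 0.40 (SD, n = 2), and the libraries of the 2 genotypes overlapped. The other shared peak, also in intron 1 at 116.7 kb, gave means of -0.27 ± 0.41 in WT and -0.52 ± 0.54 in LKO and overlapped too. Relative to the other shared peaks, FXR on the receptor gene was thus at a typical level in both genotypes where both lists held it. Such levels cannot show a change common to all shared peaks. The deposited peak score, scaled to 10000000 tags, was 40.2 in WT and 17.5 in LKO at 92.5 kb. At 116.7 kb it was 36.1 and 16.2, and the cause of these lower scores was not tested.

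The strongest Ghr peak in 1 list only lay at -155.4 kb, at chr15:3738635-3738845. Its WT levels were 0.10 and 0.02, a mean of 0.06 ± 0.05, which ranked 5186 of 20040. Its reference sequence was 98.6% soft-masked repeat, annotated as the LINE Lx3_Mus, so it is a place where unique alignment is harder. Of the 8 WT-only Ghr peaks, 7 had under 15 estimated tags in WT replicate 2. The 6 upstream of the gene were at least 112397 bp from any LKO peak, so no displaced LKO peak stood near them.

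Jak2, the kinase that GHR activates, had no FXR peak in either list inside the gene or within 20 kb of it. The nearest WT peak was at 110.0 kb from its start, at the promoter of Plgrkt, and the nearest LKO peak was at -71.3 kb. Binding below the limits of peak calling was not measured here.

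Stat5a and Stat5b lie side by side on chromosome 11, and they differed. Stat5b carried the second strongest shared peak of the members, in intron 1 at chr11:100829033-100829243, which the deposited annotation puts at -6.6 kb of an internal start. The levels there were 2.25 and 2.27 in WT and 2.31 and 2.38 in LKO. The means were 2.26 ± 0.02 and 2.35 ± 0.05 (n = 2), and the peak ranked 378 of 20040 in WT and 357 of 12495 in LKO. Both LKO libraries were above both WT libraries, by a mean of 0.09, which is small beside a 90th percentile of 0.83 over all shared peaks and turned to -0.24 with the values as deposited. This site, the strongest of the STAT genes, was near the same place in the order of both lists.

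The other peaks assigned to Stat5b were weaker, and all lay in intron 1. The other shared peak, at 11.9 kb in the WT list, had levels of -1.18 and -2.40 in WT and -0.90 and -0.80 in LKO, a mean difference of 0.94. It rested on an estimated 2.62 tags in WT replicate 2. The strongest WT-only peak, at 5.9 kb and chr11:100816537-100816747, had levels of -0.03 and 0.16 in WT. The only LKO-only peak of all members, at 5.4 kb and chr11:100817071-100817275, had levels of -0.50 and -0.14 in LKO. Those last peaks lay 323 bp apart, so they counted as separate but were joined when a gap of up to 500 bp was allowed. Inside the Stat5b gene, intron 12 held another shared peak that the authors' annotation assigned to Ghdc. That peak ranked 1178 of 20040 in WT and 1913 of 12495 in LKO. The 3′ UTR of Stat5b held a peak in the WT list only, also assigned to Ghdc, which ranked 6755 of 20040.

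Stat5a had 4 peaks, all in the WT list only and all below the median strength. They lay at -0.1 kb and 0.1 kb of annotated starts, at 10.3 kb in intron 6, and at 26.1 kb, where the annotation gives the end of a Stat3 transcript. The strongest was that in intron 6, at chr11:100870689-100870899, with WT levels of -0.65 and -0.80 and a mean of -0.73 ± 0.10, which ranked 10415 of 20040. At the 4 Stat5a peaks WT replicate 2 had between 5.13 and 7.98 estimated tags. The LKO list held no peak within 20 kb of the Stat5a gene.

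**Figure D3:**
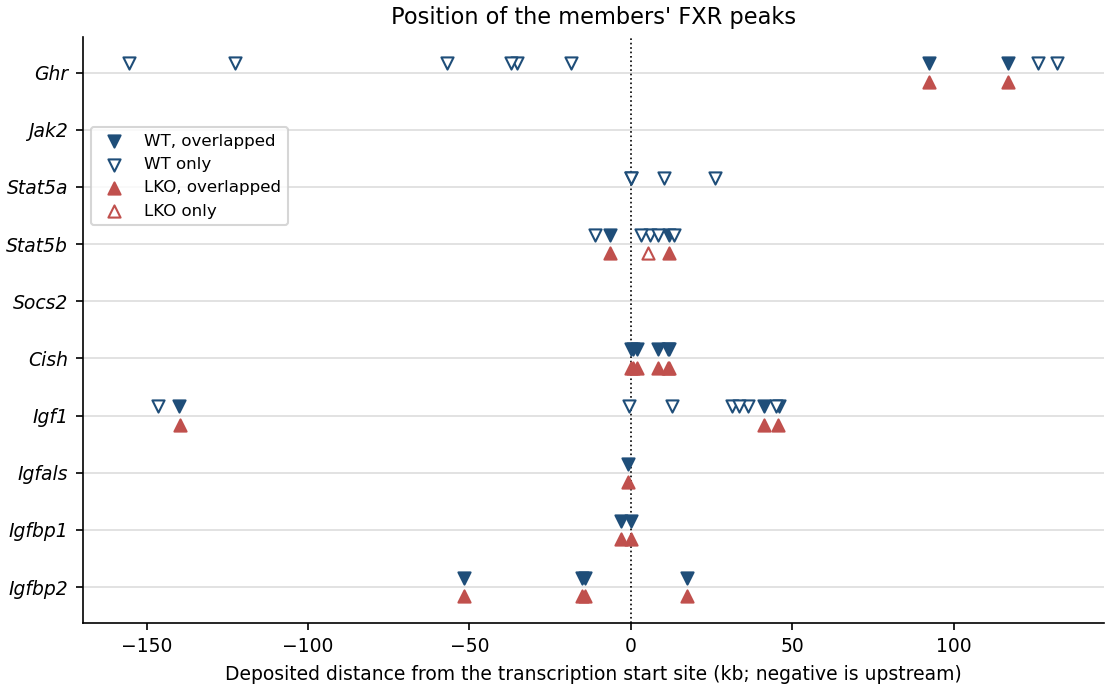
Deposited distance of each peak from a transcription start of its gene in kb (x axis, negative is upstream), by gene, for WT (blue, pointing down) and LKO (red, pointing up). Filled symbols overlap a peak of the other list and open symbols do not. The distances of Ghr, Stat5b, Stat5a, Igf1 and Igfbp2 count from more than 1 annotated start. The open WT symbols spread upstream of Ghr and through Stat5b and Igf1, and 1 LKO symbol, on Stat5b, is open.

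Socs2 and Cish are the feedback genes that STAT5 switches on. Cish, a short gene of 6.1 kb on chromosome 9, was the only one of the 10 with more than 4 LKO peaks, and its 6 peaks were in both lists. In WT all 6 were at or above the median strength. They lay at 0.1 kb in the 5′ UTR, at 0.7 and 2.0 kb in the gene, and at 8.5, 11.4 and 11.9 kb past its start, beyond the gene. The peak at 0.7 kb is deposited as intronic and lies in an exon of another RefSeq transcript.

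The strongest Cish peak in WT was that at 11.9 kb, and in LKO it came after that at 8.5 kb. Its levels were 1.06 and 2.00 in WT and 1.46 and 1.08 in LKO, with means of 1.53 ± 0.67 and 1.27 ± 0.27 (n = 2). The libraries overlapped, and the peak ranked 1102 of 20040 in WT and 1416 of 12495 in LKO. The 6 Cish differences between genotypes ran from -0.63 to 0.99, with 2 peaks above, 2 below and 2 overlapping. In these levels the Cish peaks did not differ in a single direction. With the input value subtracted, the coarsest of the alternatives tried, all 6 differences were negative.

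The ends of that range were picked after their values were seen. At 11.4 kb the levels were 1.14 and 1.36 in WT and 0.76 and 0.48 in LKO. At 8.5 kb, nearer to the gene, they were 0.18 and 0.50 in WT and 1.53 and 1.14 in LKO. The 8.5 kb peak was the one where LKO was highest over WT, and its LKO input value was above the 95th percentile of LKO inputs, which was 2.49 on the log2 scale. With the input value subtracted its difference turned to -0.75, and the part of the input in it was not tested.

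The Cish 5′ UTR peak held a pair of STAT-type palindromes 8 bases apart, and the peak at 2.0 kb held an IR1 match with 2 mismatches. They are shown because Cish is the classic STAT5 target, with the palindromes and the IR1 match in capitals.
Cish 5′ UTR, chr9:107296762-107296791: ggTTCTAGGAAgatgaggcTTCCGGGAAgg
Cish intron 1, chr9:107298632-107298660: gtggtcacAGGACTATGACCTtctaaaca

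At the 5′ UTR pair the levels were -0.64 and 0.97 in WT and -0.09 and -0.26 in LKO. The WT mean of 0.17 ± 1.14 had the widest SD of the 20 shared peaks, and it covered the LKO mean of -0.17 ± 0.12. The peak with the IR1 match had means of -0.39 ± 0.04 in WT and -0.21 ± 0.13 in LKO. The difference there was 0.18 in favour of LKO, and it turned to -0.15 with the values as deposited and to -0.30 with each library centred on its own list.

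Socs2, a brake on growth hormone signalling in liver, had no peak assigned to it, but FXR was beside its start. A shared peak at chr10:95417881-95418091 lay at -1129 bp of the Socs2 start and was assigned to the neighbouring non-coding RNA 5730420D15Rik, in whose intron 1 it falls. Its levels were 0.55 and 0.98 in WT and 0.93 and 0.76 in LKO, with means of 0.77 ± 0.30 and 0.85 ± 0.12 (n = 2). The libraries overlapped, and it ranked 2552 of 20040 in WT and 2229 of 12495 in LKO, which are percentiles of 87.27 and 82.17. It held both an IR1 match with 2 mismatches and a STAT-type palindrome, shown in capitals for that reason.
Upstream of Socs2, chr10:95417928-95417952: aaccatttTTCTTTGAAatactgtt
Upstream of Socs2, chr10:95417973-95418001: agcttgaaAGGTCAATGGCCActtttagt

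At -9.5 kb of the Socs2 start was another shared peak of the same RNA, with levels of 0.93 and 1.83 in WT and 0.93 and 0.78 in LKO. A further one at -13.7 kb was in the WT list only. With the members defined by gene span and 20 kb on each side instead of the deposited name, Socs2 therefore had 3 WT and 2 LKO peaks.

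Igf1, the main endocrine output of the pathway, had the same number of WT peaks as Ghr and also few in LKO. Of its 10 WT peaks 7 were intronic, 1 was at a promoter and 2 were intergenic, and 3 had an LKO counterpart. The strongest was in intron 2 at 41.1 kb, with levels of -0.26 and 1.03 in WT and -0.31 and 0.28 in LKO. The means were 0.39 ± 0.91 and -0.02 ± 0.42 (n = 2), so the difference of -0.40 was smaller than the WT SD and the libraries overlapped. This is the peak with the pair of palindromes printed earlier, TTCTCAGAA and TTCGCAGAA.

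The strongest WT-only Igf1 peak, and the strongest of all members, was also in intron 2, at 12.6 kb. Its WT levels were 0.21 and 0.11, a mean of 0.16 ± 0.07, which ranked 4719 of 20040. It was thus a little stronger than a typical shared peak, and the nearest LKO peak began 28317 bp from it. The other 6 WT-only Igf1 peaks had means from -1.57 to -1.23 and between 3.52 and 6.79 estimated tags in WT replicate 2.

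The other shared Igf1 peaks were at 45.9 kb and -139.8 kb. At 45.9 kb the levels were -0.47 and -0.14 in WT and -1.53 and -1.33 in LKO, the lowest difference of the 20 pairs, -1.13, with a pooled SD of 0.19. The WT and LKO peaks there had centres 148 bp apart, so each value was taken over a different stretch, and they were not shared under an overlap of 50% of each peak. The WT peak held 2 STAT-type palindromes within 100 bp of its centre and the LKO peak held none. At -139.8 kb the difference was 0.03 and the libraries overlapped. Within the last intron of Igf1 a shared peak with an IR1 match was assigned to Tyms-ps, and its level was 0.50 ± 0.12 in WT and 0.80 ± 0.05 in LKO.

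Igfals, which encodes the acid-labile subunit that carries IGF1 in blood, had 1 peak in each list at its promoter, chr17:24877795-24878005. Its levels were 0.45 and 0.09 in WT and 0.26 and -0.21 in LKO, with means of 0.27 ± 0.26 and 0.03 ± 0.33 (n = 2). The libraries overlapped.

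Igfbp1 codes for a binding protein that liver makes in fasting. Its 2 peaks were both lower in LKO. The promoter peak, centred at -17 bp, had levels of 1.28 and 1.37 in WT and 0.31 and 0.95 in LKO, with means of 1.32 ± 0.06 and 0.63 ± 0.46 (n = 2). The peak at -3.1 kb had levels of 0.50 and 0.62 in WT and -0.06 and -0.49 in LKO, with means of 0.56 ± 0.08 and -0.27 ± 0.31. Neither pair of libraries overlapped, and the differences of -0.69 and -0.83 were larger than their pooled SDs of 0.33 and 0.22. The 10th percentile of the difference over all shared peaks was -0.62, and the 5th was -0.82. These are whole livers, in which FXR in fewer cells and less FXR per cell cannot be told apart. The promoter peak ranked 1407 of 20040 in WT and 2772 of 12495 in LKO.

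Igfbp2 is another secreted IGF-binding protein of liver. It had the strongest peak of all members, at -51.6 kb, with levels of 2.37 and 2.50 in WT and 2.26 and 2.59 in LKO. The means were 2.44 ± 0.09 and 2.42 ± 0.23 (n = 2), and the libraries overlapped. It ranked 282 of 20040 in WT and 322 of 12495 in LKO, and its LKO input value, 2.54, was also past the limit of 2.49. Of the 21 LKO peaks of the members 2 passed that input limit, this one and Cish at 8.5 kb, where the limit by its construction passes 5.00% of all LKO peaks.

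The peaks nearer to Igfbp2 were lower in LKO, and they were picked after their values were seen. At -15.0 kb the levels were 0.69 and 0.99 in WT and -0.65 and 0.31 in LKO. At -14.3 kb they were 0.48 and 0.28 in WT and -0.00 and -0.63 in LKO. Neither overlapped, with differences of -1.01 and -0.70, but that at -15.0 kb turned to 1.04 when the input value was subtracted. The peak at 17.4 kb, in intron 1, gave -0.33 with overlapping libraries. The -14.3 kb peak held the closest IR1 match of the members, with 1 mismatch and 2 bases from the WT centre, and its stretch is shown with the match in capitals.
Igfbp2, -14.3 kb, chr1:72810162-72810190: aaaggctgAGGTCACTGACTTggctgagc

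**Figure D4:**
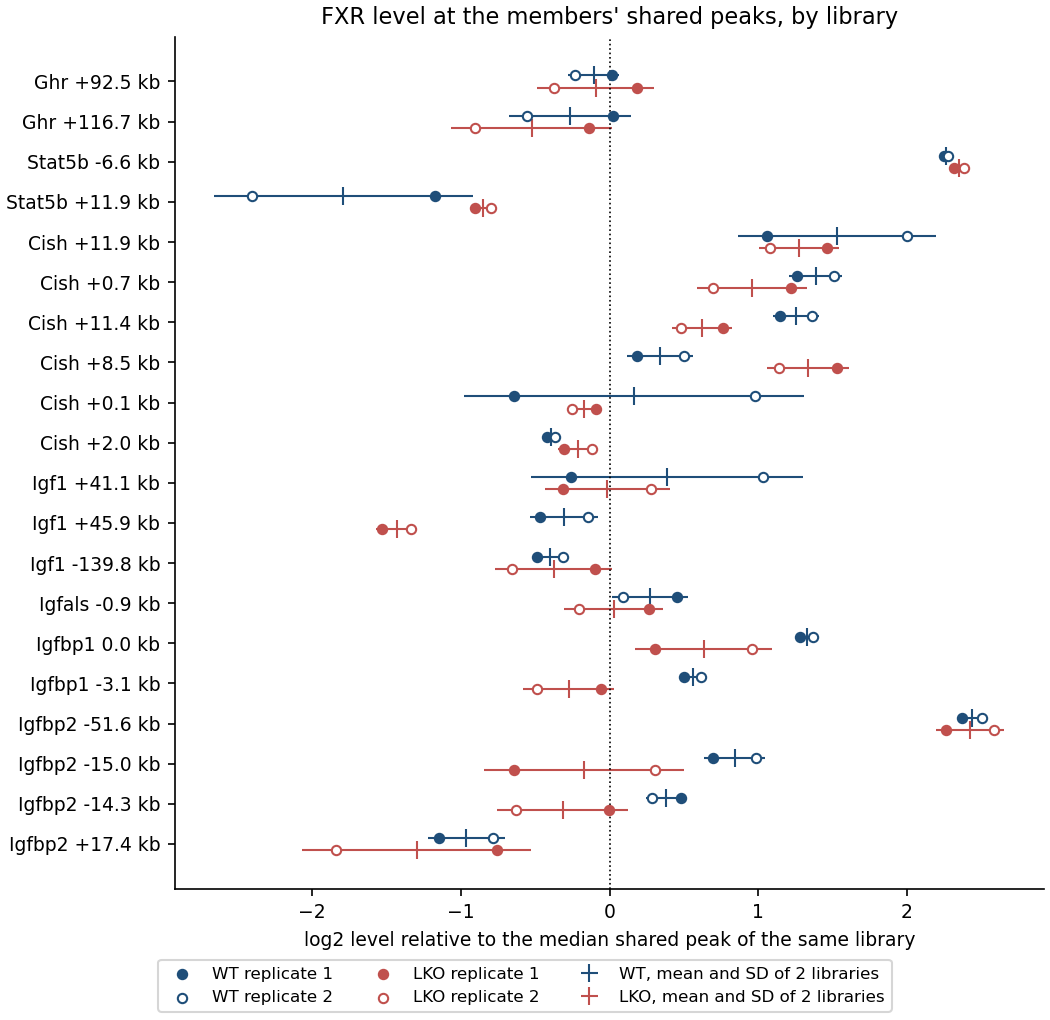
Level of FXR at the 20 shared peaks of the members, as log2 relative to the median shared peak of the same library (x axis), by gene and distance from the start. Points are the libraries of WT (blue) and LKO (red), filled for replicate 1 and open for replicate 2; ticks and bars are the mean and SD of 2 libraries. The Igfbp2 peak at -51.6 kb and the Stat5b peak at -6.6 kb stand above 2 in all 4 libraries, and both Igfbp1 peaks have both LKO points left of both WT points.

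Over the 20 shared peaks, both LKO libraries were above both WT libraries at 4, against 29.8% of all shared peaks, and below them at 7, against 25.2%. The other 9 overlapped. The difference was below 0 at 14 of 20, against 48.0% of all shared peaks, with a median of -0.30 against 0.03. Of the 7 below, 2 were on Igfbp1, 2 on Igfbp2, 2 on Cish and 1 on Igf1, and of the 4 above, 2 were on Stat5b and 2 on Cish. With input subtracted, 1 of the Igfbp2 peaks below and both Cish peaks above turned in sign. The tables of the 2 genotypes were normalized separately, and 2 libraries against 2 cannot give a two-sided exact permutation p below 0.33, so no test was made and these are descriptions.

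That median moved with single libraries. Leaving out WT replicate 2 gave -0.13 and leaving out LKO replicate 2 gave -0.12, while leaving out WT replicate 1 gave -0.53 and leaving out LKO replicate 1 gave -0.43. With WT replicate 1 alone set against both LKO libraries, 6 of the 20 were above and 9 below, against 41.1% and 35.3% of all shared peaks. Among all shared peaks at or above the 75th percentile of WT strength 38.1% were below and 21.2% above, with a median of -0.13. Of the 20 pairs of the members, 13 were that strong, with 6 below, 2 above and a median of -0.40. WT strength is one side of the difference, so choosing peaks that are strong in WT favours differences below 0 by construction, and nothing is read from these counts.

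The motifs of nuclear receptors were counted next. An IR1 match within 100 bp of the centre was found at 2 of 44 WT peaks (4.55%, 1.26 to 15.1%), against 11.8% of all WT peaks, and at 3 of 21 LKO peaks (14.3%, 4.98 to 34.6%), against 16.2%. The WT matches were those at Igfbp2 and Cish, and the LKO list added Stat5b at 11.8 kb. None of the 24 WT-only peaks had a match, which allows a share of up to 13.8%, and 7.16% of all WT-only peaks had one. The exact half-site was at 20 of 44 WT peaks (45.5%), against 40.3%, and at 10 of 21 LKO peaks (47.6%), against 41.3%. The half-site shares were close to those of all peaks, and the intervals of the IR1 shares reached those of all peaks.

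The STAT-type palindrome TTCNNNGAA was found at 7 of 44 WT peaks (15.9%, 7.93 to 29.4%), against 6.56% of all WT peaks, and at 3 of 21 LKO peaks (14.3%, 4.98 to 34.6%), against 6.39%. The 7 were on Igf1 (3 peaks), Ghr (2), Cish and Stat5b. Of these, 3 held a pair, namely Cish at 0.1 kb and Igf1 at 41.1 and 45.9 kb. The palindrome was at 4 of the 24 WT-only peaks and at 3 of the 20 shared ones, so it did not separate them. These genes were chosen as the pathway that STAT5 serves, so a larger share of its letters under their peaks is no independent finding.

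The members' neighbours in the pathway were taken from lists of known function. Of 15 other genes of receptor signalling and its brakes, FXR sat on 13 in WT and 10 in LKO, and Tyk2 was among those in neither list. Their 43 WT and 24 LKO peaks had 21 in common, which is 48.8% and 87.5%, against 49.5% and 79.4% over all peaks. Ptpn1, a phosphatase that acts on JAK2, had the most, 16 WT and 9 LKO peaks, and its strongest, at -108.7 kb, was higher in LKO by 0.49 with a pooled SD of 0.10. Irs2, an adaptor of insulin and growth hormone signals, had 6 and 5, and its strongest differed by -0.57 with a pooled SD of 0.20. Socs3, another brake, had a peak at 5.9 kb that ranked 594 of 20040 in WT and 356 of 12495 in LKO. Of their 21 shared peaks, both LKO libraries were above at 6 and below at 6, against 29.8% and 25.2% over all shared peaks, with a median difference of 0.02.

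Of 11 other genes of the IGF axis, WT peaks lay on 8 and LKO peaks on 6, while Igf2, Igfbp6 and Igfbp7 had none. They had 17 WT and 9 LKO peaks, with 6 in common (35.3% and 66.7%, against 49.5% and 79.4% over all peaks). The median difference over these 6 was 0.05, and its extremes, picked for that, are given next. Igfbp4 had the most in WT, 4 against 2, and its strongest peak differed by -1.05 from a WT mean of 0.49 ± 0.18. Igf2r, the clearance receptor of IGF2, differed by 0.94 from -0.55 ± 0.07.

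Genes that growth hormone sets apart between the sexes were looked at last, since STAT5 and BCL6 are known to shape them. Each of the 8 male-biased genes was in the WT list and 5 were in the LKO list, with 31 WT and 7 LKO peaks. All 7 LKO peaks overlapped a WT peak, but only 22.6% of the WT peaks (11.4 to 39.8%) overlapped an LKO peak, against 49.5% of all. The share was below that of all peaks among strong ones too. Of the 13 at or above the median strength 5 overlapped, against 75.5% of all such peaks, and of the 12 with at least 10 estimated tags in both libraries 5 did, against 75.6%. Mup20, of the urinary protein cluster, had 9 WT peaks and 1 LKO peak, Nudt7 7 and 2, and Cyp7b1, an oxysterol hydroxylase of bile acid synthesis, 4 and 2. Elovl3 had 3 and 1, and Serpina12 had 2 and 1. The strongest Elovl3 peak was shared and ranked 406 of 20040 in WT and 901 of 12495 in LKO. Hsd3b5 had 3 and none, Cyp4a12a 2 and none, and Cyp2d9 1 and none. Mup20, Cyp4a12a, Cyp2d9 and Hsd3b5 belong to families of related genes, and how uniquely reads align at their peaks was not measured. Of the WT peaks of these genes only 1, on Mup20, overlapped an LKO peak. On the other genes of the list, 2 overlapped on Nudt7, 2 on Cyp7b1, 1 on Elovl3 and 1 on Serpina12. Whether alignment bears on the low share of the list was not tested.

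The 13 female-biased genes had 25 WT and 23 LKO peaks on 8 genes in each list. Of the WT peaks 64.0% overlapped an LKO peak (44.5 to 79.8%), against 49.5% of all, and of the LKO peaks 69.6% overlapped a WT peak, against 79.4% of all. Trim24 had the most in WT, with 6 WT and 3 LKO peaks and 1 of the WT peaks shared. Cyp3a16 had 5 and 4, with 3 of the WT peaks shared. Cux2, a repressor of male-biased genes that is expressed in female liver, had 4 WT and 6 LKO peaks, and all its WT peaks were shared. The strongest Cux2 peak ranked 391 of 20040 in WT and 461 of 12495 in LKO. Cyp2b9, Cyp2a4, Cyp3a41a, Sult3a1 and Hao2 had no peak in either list. Only uniquely mapped reads were kept by the authors, so a missing peak does not show that FXR was absent. Of the 16 shared peaks both LKO libraries were above at 8 and below at 4, against 29.8% and 25.2% over all shared peaks. The difference between the male-biased and female-biased lists was not tested, and peaks of 1 gene are not independent of each other.

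**Figure D5:**
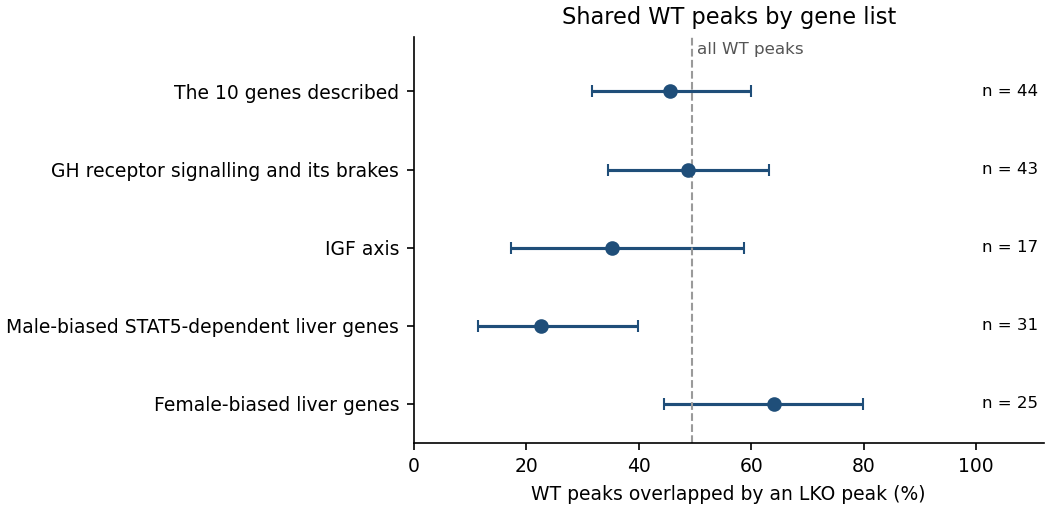
Share of the WT peaks of each gene list that overlap an LKO peak (x axis, %), with 95% Wilson intervals as bars and the number of WT peaks at the right. The dashed line is the share of all WT peaks, 49.5%. The 10 genes described sit at 45.5%, the male-biased genes lowest at 22.6% and the female-biased genes highest at 64.0%.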

How the data were processed

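FXR ChIP-seq was done by the authors on liver crosslinked with disuccinimidyl glutarate and formaldehyde, with 2 ChIP libraries and 1 input per genotype, grouped from their labels. Reads were aligned to mm10, and the submitters' processing notes name Bowtie 1.2 and HOMER 4.10. The file headers say that peaks were called by the authors in HOMER on pooled replicates against input. The authors then ran DESeq2 of ChIP against input and kept peaks with an FDR under 0.05 and a log2 fold above 1. The deposited columns of that fold and its p-values were not used. Some deposited values per library are below 0 and most have decimals, so they were read as the regularized log2 values of the authors' run over the 3 libraries of 1 table. Depth was estimated from them and the library totals. The peak score deposited by the authors is a signal of both ChIP libraries of a genotype together, scaled to 10000000 tags.

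Overlap needed 1 bp. Peaks were 211 bp (WT) and 205 bp (LKO). Motifs were searched on both strands of the GRCm38.p6 genome of RefSeq, within 100 bp of the peak centre, and places and spans came from its annotation. Intervals are 95% Wilson intervals. All 10 genes are named, with full values for the strongest shared peak of each and the strongest in 1 list only, and peaks named outside this rule are said to be so or are given beside it. The members and lists were chosen with earlier results of these data known. The code, tested on simulated data, ran in Python 3.11.15 with pandas 2.3.3, numpy 2.4.6, matplotlib 3.10.9 and scipy 1.17.1. Alternatives tried were limits on strength, input, depth and distance, other overlap rules, centring and motif limits, input subtraction, and leaving out each library. Some genes of the lists are not reported here by name.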

Additional observations from a re-analysis of the deposited data

How the results depend on the processing

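The planned test between genotypes was not run, because the tables have no common scale, and no result here has a p-value. No paired analysis was possible because no label ties a WT library to an LKO library beyond a shared replicate number, and no test joined the genotypes. With only peaks at or above the median strength of their list, the members had 23 WT and 12 LKO peaks, 100% of the latter overlapped a WT peak, and 0% of them had an IR1 match. The LKO share was also 100% with a gap of up to 500 bp allowed. With at most 1 mismatch, 4.76% of LKO peaks had an IR1 match. Alternatives chosen after seeing the data were the half-site in place of IR1 (45.5% of WT and 47.6% of LKO peaks), at least 10 estimated tags in both libraries (22 WT peaks, 77.3% of them shared), the pooled peak score, and the pairs with neither input value above its 95th percentile. The last 2 left the median difference at -0.13 and -0.34. For the score, each log2 ratio of LKO to WT was taken minus its median over all shared peaks. Before that subtraction the score was lower in LKO at each shared peak of the members except Cish 8.5 kb. There it was 46.6 in WT and 47.6 in LKO.

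The median difference of -0.30 over the shared peaks was -0.77 with each library centred on its own list, -0.62 with the values as deposited and -0.61 with input subtracted, and it ran from -0.53 to -0.12 with 1 library left out. In that order of alternatives, the difference at Cish 2.0 kb reversed to -0.30, -0.15 and -1.67, and that at Stat5b -6.6 kb to -0.39 and -0.24 in the first and second. With input subtracted, Igfbp2 -15.0 kb reversed to 1.04 and Cish 8.5 kb to -0.75, and the sign also turned at peaks whose libraries overlapped, to 1.82 at Ghr 116.7 kb, 1.09 at Igfbp2 17.4 kb and -1.80 at Ghr 92.5 kb. Input values are close to 0 tags at most peaks, so that alternative is the coarsest. Of 178 recomputed differences at single peaks 29 changed sign, 7 of them at peaks whose libraries had not overlapped. Leaving out WT replicate 2 changed the sign at 5 of 20 peaks, 0.47 at Cish 0.1 kb being the furthest from 0. The causes of these shifts were not tested. WT replicate 2, the shallowest library, limits what can be said of weak WT peaks.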
